A study of Mus musculus with 5 samples.

Results

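Interferon response genes are the transcripts that cells turn on when type I, type II or type III interferon binds its receptor. A list of 30 such genes was described in group 2 innate lymphoid cells (ILC2s), lymphocytes of the lung that respond to the alarmin IL-33. A gene was included where the platform annotation gave at least 1 probe set that symbol and no other, and the probe set with the highest mean over all arrays stood for it. This gave 27 of the 30 genes, out of 22180 genes named in all. Oas1a and Gbp2 had probe sets shared with a near copy of the gene, and Ifi44 had no probe set of its own, so these 3 were not analysed here. All 27 identifiers carried the same symbol in RefSeq.

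The 5 arrays came from ILC2s of the lungs of adult mice, labelled male, that had received no treatment, 3 from wild-type mice and 2 from IL-33 knockout mice. The labels call the arrays biological replicates. The sources used here do not give the strain, the knockout allele, the age in weeks, the number of mice per array or the way the cells were sorted. Values are log2 probe-set signals. Probe sets differ in how strongly they bind, so a level is given as what that probe set read and is not a ranking between genes.

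In the textbook pathway, type I interferon signals through its receptor to a complex that holds STAT2 and IRF9, and this complex binds the interferon-stimulated response element (ISRE) in promoters. Interferon-gamma acts through a second receptor and the shorter GAS element, with IRF1 as an early target. The products block viral translation and replication, sense foreign nucleic acid, present antigen, or damp the signal again. Type I interferon and interferon-gamma are known to restrain ILC2s.

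Of the measured genes, 20 had an entry in the promoter set used here (build GRCm38.p6). Mx1, Mx2, Oas2, Parp14, Rtp4, Usp18 and Zbp1 had no entry and were not searched. Bst2, Gbp3, Ifit1, Ifit3, Isg15, Oas3, Rsad2 and Stat2 held the letters GAAANNGAAA, the core of the ISRE, on either strand within the 250 bases before the start. That is 8 of 20 genes, 40.0%, against 3.46% of 27025 genes with a promoter in the same set. The genes were listed for their response to interferon, so this share belongs to the choice of list and is not a result of these arrays. The shorter letters TTCNNNGAA of the GAS element, the same on both strands, were present in 3 of the 20, 15.0%, against 8.13% of genes. A match is a description of letters and not a bound site, and matches to GAAANNGAAA may overlap each other. A window of 30 bases with the match nearest the start is shown for each of these 8 genes, so that the letters can be seen beside their values. They are written 5′ to 3′ on the gene's strand, with each match in capitals. Ifit3 has 2 matches, of which 1 falls in its window. For Gbp3, Ifit3 and Oas3 the tabulated start lies inside the annotated gene. Among the genes without a match this also holds for Cmpk2, Ifit2, Irf7, Oasl1, Oasl2 and Xaf1. The windows of such genes do not cover all of the 250 bases before the annotated start.
Isg15, chr4:156200871-156200900, minus strand: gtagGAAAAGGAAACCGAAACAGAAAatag
Ifit1, chr19:34640784-34640813, plus strand: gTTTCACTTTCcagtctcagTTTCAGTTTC
Ifit3, chr19:34583397-34583426, plus strand: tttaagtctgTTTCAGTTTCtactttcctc
Oas3, chr5:120777715-120777744, minus strand: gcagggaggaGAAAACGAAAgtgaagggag
Rsad2, chr12:26456553-26456582, minus strand: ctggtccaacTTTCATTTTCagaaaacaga
Bst2, chr8:71537580-71537609, minus strand: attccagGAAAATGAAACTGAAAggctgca
Gbp3, chr3:142559992-142560021, plus strand: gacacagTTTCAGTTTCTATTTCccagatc
Stat2, chr10:128270266-128270295, plus strand: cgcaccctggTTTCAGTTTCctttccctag

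In Isg15, 3 overlapping matches ran together and ended 57 bases before the start, and in Ifit1 the nearer of 2 matches ended 76 bases before it. The match of Stat2 lay farthest out, 213 bases before the start. Isg15 and Ifi35 were the 2 genes of the list with an unadjusted p below 0.05 by limma in the main test, 1 in each direction. The 250 bases before their starts are shown whole. Ifi35 had no match to either set of letters in this window, which says nothing about the factor.
Isg15, chr4:156200819-156201068, minus strand: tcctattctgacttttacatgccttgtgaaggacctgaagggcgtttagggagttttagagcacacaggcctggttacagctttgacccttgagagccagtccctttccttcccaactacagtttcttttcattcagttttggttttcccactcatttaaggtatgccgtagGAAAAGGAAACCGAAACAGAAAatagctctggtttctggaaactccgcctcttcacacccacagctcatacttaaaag
Ifi35, chr11:101448162-101448411, plus strand: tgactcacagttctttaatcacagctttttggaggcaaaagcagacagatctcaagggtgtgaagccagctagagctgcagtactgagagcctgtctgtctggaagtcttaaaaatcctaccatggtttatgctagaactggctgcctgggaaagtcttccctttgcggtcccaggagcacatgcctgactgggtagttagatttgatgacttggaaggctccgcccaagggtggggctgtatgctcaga

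Il33 itself read 3.37, 3.39 and 3.32 in wild type and 3.79 and 3.95 in knockout, among the dim genes, and was not tested. The deleted part of the gene and the position of the probes are not known here, so this does not check the genotype. Both knockout arrays stood apart in ways that the labels do not give. The array labelled IL-33 knockout replicate 2 read 7.91 for Xist, a transcript of the inactive X chromosome, against 2.35 to 3.10 on the other 4 arrays, which goes against its male label. Its Y-linked genes Kdm5d and Eif2s3y read 4.79 and 6.14, below 5.57 to 5.63 and 6.82 to 7.62 elsewhere, whereas Uty read 7.17, above 5.83 to 6.96 elsewhere. Knockout replicate 1 had the secretory airway transcripts Bpifa1 at 8.52 and Scgb1a1 at 8.81, against 2.85 to 3.22 and 3.62 to 5.93 on the others. For that reason knockout values of the members are given for each array on its own. Array medians lay between 4.29 and 4.33, and the median gene of the 22180 read 4.48.

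No interferon response gene passed the test between genotypes. With limma and Benjamini-Hochberg adjustment over 16635 genes, 0 of the 23 members tested and 0.0% of all genes tested had an adjusted p below 0.05. The adjusted p of the members lay between 0.545 and 1.0. At an unadjusted p below 0.05 there was 1 member higher in knockout, Isg15, beside 5.05% of all genes, and 1 lower, Ifi35, beside 2.59%. The other 4 genes measured, Ifit2, Mx1, Mx2 and Oasl2, belonged to the 25% of genes with the lowest mean and were left out of this main test. Genes called not tested in this report are those left out of it. In a limma fit without that filter, 0 of the 27 members passed, with a lowest adjusted p of 0.499. There 3 members, beside 1534 of 22180 genes, had an unadjusted p below 0.05.

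The knockout-minus-wild-type difference was above 0 for 15 of the 23 members and below 0 for 8, where over all genes tested 57.3% lay above and 39.9% below. The median difference of the members was 0.10 on the log2 scale, against 0.04 over all genes tested. Taken alone, knockout replicate 1 had a median of 0.14 for the members and 0.03 for all genes tested, and replicate 2 had 0.0039 and 0.01. Both groups were fully separate for 2 members higher in knockout, Isg15 and Zbp1, with 11.6% of all genes in that direction. They were separate for 3 lower members, Ifi35, Ifih1 and Irf7, with 6.32% of all genes. These counts moved with the scaling: quantile normalization gave 7 higher members and 3 lower, beside 21.0% and 9.61% of genes. Median centring gave 5 higher and 4 lower, beside 13.2% and 9.95%. In bulk RNA, fewer cells that carry a transcript and less of it per cell cannot be told apart.

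**Figure D1:**
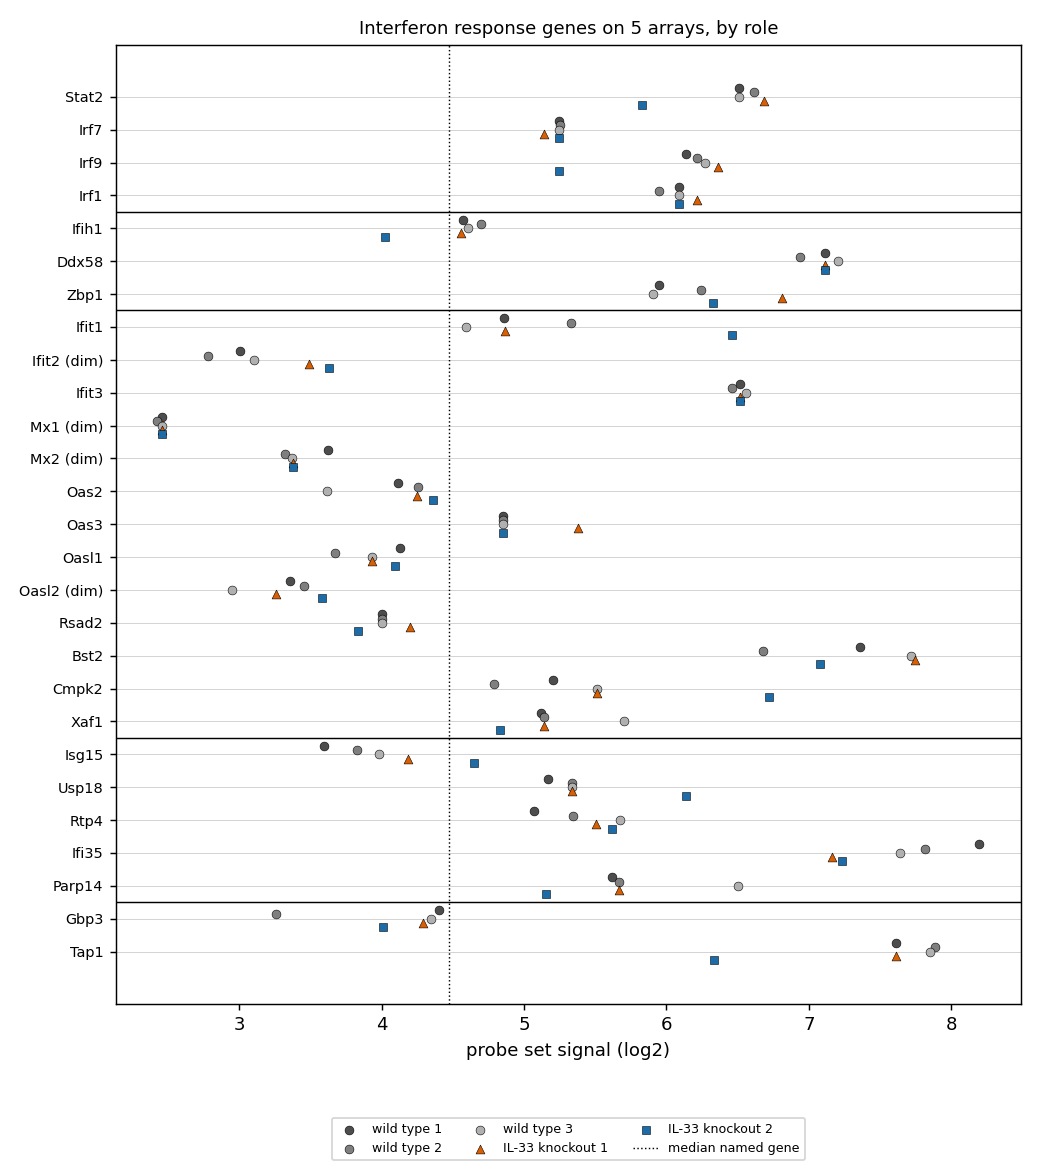
Signals of the 27 interferon response genes on the 5 arrays (horizontal axis, log2 probe-set signal), grouped by role from transcription factors at the top to GTPase and antigen presentation genes at the bottom; each point is 1 array and the dotted line is the median named gene at 4.48. The square of knockout replicate 2 lies far to the right of the other points for Ifit1 and Cmpk2 and far to the left for Tap1 and Irf9.

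The 4 transcription factor genes of the pathway all had means above that of the median gene, and none passed the test. Stat2, the partner that links the type I receptor to IRF9, read 6.51, 6.61 and 6.51 in wild type, 6.68 in knockout replicate 1 and 5.83 in replicate 2. Irf9, the DNA-binding subunit of that complex, read 6.14, 6.21 and 6.27 in wild type, 6.36 in knockout replicate 1 and 5.24 in replicate 2. For both genes the 2 knockout arrays fell on opposite sides of the narrow wild-type range.

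The genotype difference was -0.29 (SE 0.29) for Stat2 and -0.41 (SE 0.37) for Irf9, and limma gave an adjusted p of 0.686 and 0.664. Both differences depended on which knockout array was kept. Without knockout replicate 1, Stat2 differed by -0.72 and Irf9 by -0.96. The array of high Xist was then the only knockout. Without knockout replicate 2 the differences were 0.14 and 0.15 in the other direction.

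Irf7, the regulator that amplifies interferon production, read 5.24, 5.26 and 5.24 in wild type, 5.14 in knockout replicate 1 and 5.24 in replicate 2. It counted as separate by a margin beyond the second decimal in replicate 2, and its difference was -0.06 (SE 0.05). Irf1, a factor induced early by interferon-gamma, read 6.09, 5.95 and 6.09 in wild type, 6.22 in knockout replicate 1 and 6.09 in replicate 2, a value equal to that of 2 wild-type arrays.

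Among the sensors of foreign nucleic acid, Zbp1 was higher and Ifih1 lower on both knockout arrays. Zbp1, a sensor of Z-form nucleic acid that can start cell death, read 5.95, 6.24 and 5.91 in wild type and 6.81 and 6.33 in knockout. The wild-type mean of 6.03 ± 0.18 (SD, n = 3) compared with 6.57 ± 0.34 (SD, n = 2) for the knockout arrays. This 1.45-fold difference had an adjusted p of 0.623 by limma. The nearest pair of arrays, wild type replicate 2 and knockout replicate 2, lay close together.

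Ifih1, which encodes the double-stranded RNA sensor MDA5, read 4.57, 4.70 and 4.61 in wild type, 4.56 in knockout replicate 1 and 4.03 in replicate 2. Replicate 1 was thus only just below the wild-type arrays, and most of the difference of -0.33 (SE 0.18) came from replicate 2. Ddx58, the gene of the RNA sensor RIG-I, read 7.12, 6.94 and 7.20 in wild type and 7.12 in both knockout arrays, within the wild-type range.

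Of the antiviral effector genes, Cmpk2 and Ifit1 had the largest differences above 0, and both came from 1 array. Cmpk2, a mitochondrial nucleotide kinase gene that neighbours Rsad2, read 5.20, 4.79 and 5.51 in wild type, 5.51 in knockout replicate 1 and 6.72 in replicate 2. Ifit1, whose product binds viral RNA that lacks the host cap mark, read 4.86, 5.33 and 4.59 in wild type, 4.87 in knockout replicate 1 and 6.46 in replicate 2. On both genes replicate 2 was far above all other arrays and replicate 1 lay within the wild-type values.

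The difference of Cmpk2 was 0.95 (SE 0.46) and that of Ifit1 0.74 (SE 0.58), with an adjusted p of 0.623 and 0.631 by limma. Without knockout replicate 2 these became 0.35 and -0.06, so that the sign of Ifit1 turned. Without knockout replicate 1 they were 1.55 and 1.53.

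Other genes of the Ifit cluster did not repeat the pattern of Ifit1. Ifit3 read 6.52, 6.46 and 6.56 in wild type and 6.52 in both knockout arrays, inside the wild-type range. Its near copy Ifit3b may share these probes, and the sign of its difference of 0.0039 turned after median centring. Ifit2, an inhibitor of translation, read 3.01, 2.78 and 3.10 in wild type and 3.49 and 3.63 in knockout. It was higher on both knockout arrays but among the dim genes, so it was left out of the main test.

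Genes of the 2′-5′ oligoadenylate pathway, which activates RNase L, did not pass the test on all 5 arrays. Oas3 read 4.85 on all 3 wild-type arrays and on knockout replicate 2, and 5.38 on knockout replicate 1. Its difference of 0.26 had an adjusted p of 0.623 by limma. Without knockout replicate 2 it was 0.52, beside wild-type values that were exactly equal. Oas2 read 4.11, 4.26 and 3.61 in wild type and 4.25 and 4.36 in knockout.

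Oasl1 and Oasl2 are relatives of the Oas genes. Oasl1, reported to restrain Irf7 translation, read between 3.67 and 4.13 in wild type and 3.93 and 4.09 in knockout, so the groups overlapped. Oasl2, dim and untested, read between 2.95 and 3.45 in wild type and 3.26 and 3.58 in knockout. These genes share sequence with other family members, so which copy the probes read is uncertain.

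Mx1 and Mx2, dynamin-like GTPases that trap viral particles, were among the dim genes. Mx1 had the lowest mean of the effectors and read 2.46, 2.42 and 2.46 in wild type and 2.46 in both knockout arrays. Mx2 read between 3.32 and 3.62 in wild type and 3.38 in both knockout arrays. Neither was tested, and the groups overlapped for both.

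Bst2, the gene of tetherin, which holds budding virus at the cell surface, had the highest mean of the effectors. Its signal was 7.36, 6.68 and 7.71 in wild type and 7.74 and 7.08 in knockout, and the wild-type arrays spread almost as widely as all 5 together. Rsad2, the gene of viperin, read 4.004 on all 3 wild-type arrays, 4.20 on knockout replicate 1 and 3.84 on replicate 2, on opposite sides. Xaf1, which promotes apoptosis, read 5.12, 5.14 and 5.70 in wild type and 5.14 and 4.83 in knockout, with a difference of -0.33 (SE 0.24).

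In the ISG15 system, Isg15 read higher on both knockout arrays and its protease gene Usp18 on 1. Isg15, a ubiquitin-like modifier joined to proteins during the response, read 3.60, 3.82 and 3.98 in wild type and 4.18 and 4.65 in knockout. The groups did not overlap. The means were 3.80 ± 0.19 (SD, n = 3) and 4.42 ± 0.33 (SD, n = 2), a 1.53-fold difference, log2 0.61 (SE 0.20), with an unadjusted p of 0.0391 and an adjusted p of 0.6 by limma. Its mean of 4.05 was below that of the median gene.

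Usp18 removes ISG15 from proteins and damps the type I receptor. It read 5.17, 5.34 and 5.34 in wild type, 5.34 in knockout replicate 1 and 6.14 in replicate 2, so that the difference of 0.46 (SE 0.27) became 0.06 without replicate 2. Rtp4, a chaperone of membrane receptors that is induced by interferon, read 5.07, 5.34 and 5.67 in wild type and 5.51 and 5.62 in knockout, with the groups overlapping.

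Ifi35, an interferon-induced leucine zipper gene, was lower in knockout at its main probe set. It read 8.20, 7.82 and 7.64 in wild type and 7.16 and 7.23 in knockout, with both knockout arrays below every wild-type array. The means were 7.89 ± 0.28 (SD, n = 3) and 7.20 ± 0.05 (SD, n = 2), a difference of -0.69 (SE 0.19) with an unadjusted p of 0.0241 and an adjusted p of 0.545 by limma. Its other probe set was dimmer and did not show this, with 3.95, 4.37 and 4.37 in wild type and 4.57 and 4.37 in knockout, a difference of 0.24 in the other direction. With the probe sets averaged the difference was -0.22.

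Parp14, an ADP-ribosyltransferase gene, read 5.62, 5.67 and 6.50 in wild type and 5.67 and 5.16 in knockout. Its difference of -0.52 (SE 0.37) was -0.23 without wild type replicate 3, the high array, and -0.26 without knockout replicate 2, the low one.

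Tap1, a subunit of the peptide transporter that loads MHC class I, had the largest difference below 0 of the members tested. It read 7.61, 7.88 and 7.85 in wild type, 7.61 in knockout replicate 1 and 6.33 in replicate 2. The difference was -0.81 (SE 0.43) with an adjusted p of 0.623 by limma, and -0.17 without knockout replicate 2. Gbp3, a guanylate-binding protein gene, read 4.40, 3.26 and 4.34 in wild type and 4.29 and 4.01 in knockout, where wild type replicate 2 was the low array.

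Knockout replicate 2 departed from wild type in both directions. On it 4 members were at least 0.5 above the wild-type mean and 6 at least 0.5 below, beside 10.1% and 11.7% of all genes tested. On knockout replicate 1 these were 2 and 1, beside 9.65% and 6.25%. On knockout replicate 2, 6 of the 23 members lay above the wild-type range and 9 below it, where 30.4% and 23.6% of all genes tested did. On knockout replicate 1, 8 lay above and 3 below, where 31.1% and 16.6% of all genes did. The 2 knockout arrays were on opposite sides of the wild-type range for 3 members, Stat2, Irf9 and Rsad2, and for 9.59% of all genes tested. The knockout arrays were farther apart than the whole wild-type range for 12 of the 23 members and for 45.3% of all genes.

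**Figure D2:**
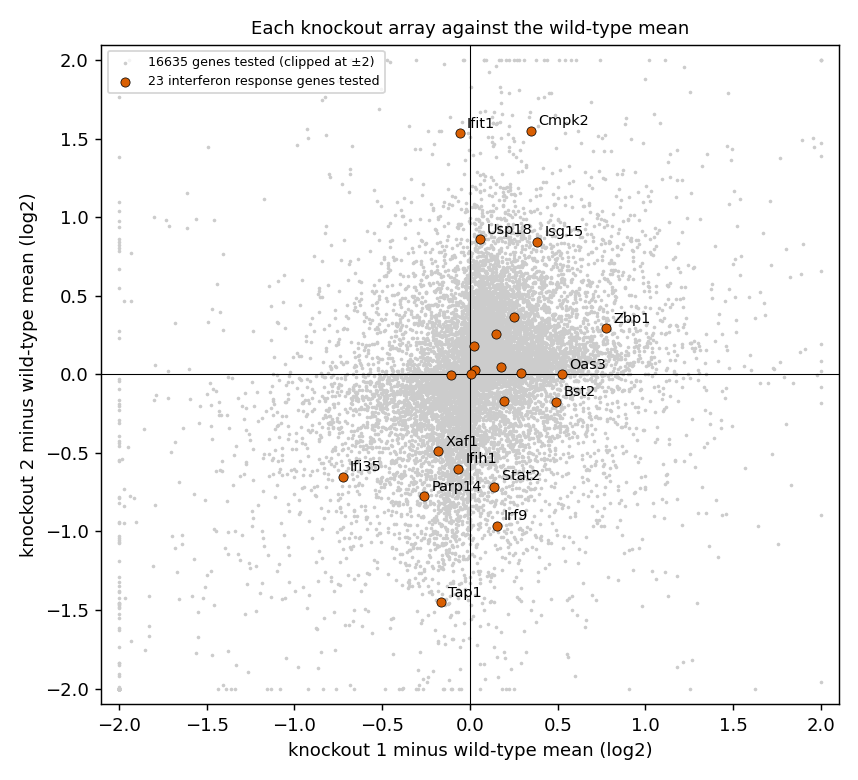
Signal of knockout replicate 1 minus the wild-type mean (horizontal axis, log2) against the same for knockout replicate 2 (vertical axis, log2), for the 23 interferon response genes tested (orange) over all 16635 genes tested (grey, drawn at ±2 where larger). Cmpk2, Ifit1, Usp18 and Isg15 lie high and Tap1, Irf9, Parp14 and Stat2 low on the vertical axis, while on the horizontal axis Zbp1 and Ifi35 lie farthest out.

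Equal values limit what a spread can say. Of the members tested, 12 of 23 had fewer than 5 distinct values over the 5 arrays, as did 63.6% of all genes tested. Oas3 and Rsad2 had 1 value on all 3 wild-type arrays, and Ddx58 and Ifit3 had 1 value on both knockout arrays, so the spread of these genes was 0 within that group.

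Members with and without the ISRE letters were set side by side, with no test. Of the 8 with a match, all tested, 7 had a difference above 0, beside 57.3% of all genes tested, with a median of 0.15 and values from -0.29 for Stat2 to 0.74 for Ifit1. That median was 0.24 on knockout replicate 1 alone and 0.0019 on replicate 2 alone, and Stat2, Ifit1, Ifit3, Rsad2, Bst2 and Gbp3 changed sign with 1 array left out. Of the 12 without a match, 10 were tested, 4 above 0 and 6 below, where 39.9% of all genes tested lay below. They had a median of -0.19 and values from -0.81 for Tap1 to 0.95 for Cmpk2. Their median was -0.02 on replicate 1 alone and -0.25 on replicate 2 alone. The ranges overlapped over most of their length. For Cmpk2, Ifit2, Irf7, Oasl1, Oasl2 and Xaf1 of the 12, the tabulated start lies inside the annotated gene. A match farther upstream would not have been counted for them.

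Upstream in the pathway, all 4 chains of the type I and interferon-gamma receptors were higher on both knockout arrays than on every wild-type array. Ifnar1, the signalling chain of the type I receptor, read 7.77, 7.22 and 7.63 in wild type and 7.96 and 8.12 in knockout, a difference of 0.50 (SE 0.20). Ifnar2, the chain that binds with high affinity, read 7.67, 7.43 and 7.75 in wild type and 7.84 in both knockout arrays. Of the interferon-gamma receptor, the binding chain gene Ifngr1 read 8.76, 9.07 and 9.07 in wild type and 9.88 and 9.47 in knockout, a difference of 0.71 (SE 0.18). The signalling chain gene Ifngr2 read 6.97, 7.58 and 7.77 in wild type and 8.30 and 8.55 in knockout, a difference of 0.99 (SE 0.29).

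None of these receptor genes passed over all genes tested, with adjusted p values by limma of 0.528 for Ifngr1, 0.557 for Ifngr2 and 0.623 for Ifnar1 and Ifnar2. The list of receptors and proximal signalling held 10 measured genes, all tested, of which 4 were higher without overlap and 0 lower, beside 11.6% and 6.32% of all genes. Its median difference was 0.04, with 0.22 on knockout replicate 1 alone and 0.01 on replicate 2 alone. Jak1, the kinase on both receptors and the gene with the highest mean of the list, read between 9.44 and 9.71 in wild type and 9.62 and 9.56 in knockout, and the sign of its difference of 0.0084 turned under both scalings.

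Interferon genes themselves sit on probe sets that near-identical copies can share, and 9 of the 20 measured had means above the median gene. Of the 11 tested, 9 had a difference above 0 and 2 below, and 3 were higher without overlap. Over all genes tested 57.3% lay above 0 and 11.6% were higher without overlap. Those were Ifnl2, an interferon-lambda gene, at 0.30, Ifna14 at 0.21 and Gm13271, which RefSeq gives as Ifnz, at 0.36. Ifna1 differed by 0.25. Ifna4, the one with the highest mean, read 6.85, 6.07 and 7.43 in wild type and 7.50 and 7.18 in knockout, with overlap. The adjusted p of these 5 genes lay between 0.623 and 0.644 by limma.

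Among 15 tested sensors, adaptors and regulatory factors outside the list, 6 were above and 9 below 0, and none passed. Over all genes tested 57.3% lay above and 39.9% below. Without overlap 2 were higher and 2 lower, beside 11.6% and 6.32% of all genes. Sting1, the adaptor of cytosolic DNA sensing, read 8.41, 8.28 and 8.37 in wild type and 7.93 and 8.15 in knockout, a difference of -0.31 (SE 0.09) with an adjusted p of 0.566 by limma. Irf2, an antagonist of IRF1, differed by 0.53, Tlr9, an endosomal DNA sensor gene, by 0.26 and the adaptor gene Ticam1 by 0.20.

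Of 12 tested negative regulators, 6 lay on each side of 0, and none passed. Over all genes tested 57.3% lay above and 39.9% below. Without overlap 0 were higher and 2 lower, Ptpn6 and Adar, beside 11.6% and 6.32% of all genes. Ptpn6, the phosphatase SHP-1, read 6.88, 6.54 and 6.67 in wild type and 5.33 and 6.36 in knockout, a difference of -0.86 (SE 0.36). Adar, an RNA editing enzyme that keeps MDA5 quiet, differed by -0.43. Socs3 and Pias1 differed by 0.35 and 0.38 with overlap of the groups. Samhd1, a nucleotide hydrolase gene and the highest mean here, read between 9.79 and 9.88 on all arrays, and the sign of its difference of 0.02 turned after quantile normalization.

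Further type I targets also went both ways, with 12 of 31 tested above 0 and 19 below, beside 57.3% and 39.9% of all genes. Without overlap 3 were higher and 5 lower, beside 11.6% and 6.32%. The median of -0.12 depended on the array, with 0.09 on knockout replicate 1 alone and -0.17 on replicate 2 alone. Ifitm3, which blocks viral entry at endosomes, read 5.47, 5.12 and 5.43 in wild type and 5.84 and 6.32 in knockout, a difference of 0.74 (SE 0.20) with an adjusted p of 0.541 by limma. Oas1b, an Oas family gene, read 4.23, 4.23 and 5.15 in wild type and 3.16 and 3.54 in knockout, a difference of -1.19 (SE 0.37) with an adjusted p of 0.578 by limma, and near copies may share its probes.

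Differences were 0.34 for the galectin gene Lgals9 and -0.53 for Lgals3bp, whose product binds galectins, each without overlap of the groups. Ly6e, an entry restriction factor with the highest mean of the list, read 12.04, 11.97 and 12.23 in wild type and 12.18 and 11.91 in knockout, with overlap.

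In the class I antigen presentation arm, which Tap1 serves, H2-K1 and Psmb9 read lower on both knockout arrays and B2m higher, and none passed. H2-K1, a class I heavy chain gene, read 9.81, 9.83 and 9.84 in wild type and 9.27 and 9.57 in knockout, a difference of -0.41 (SE 0.10) with an adjusted p of 0.528 by limma. The difference of H2-K1 was -0.26 without knockout replicate 1 and -0.56 without knockout replicate 2. Its probes may read other class I genes.

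Psmb9, an immunoproteasome subunit gene beside Tap1, read 6.98, 7.11 and 7.07 in wild type and 6.84 and 6.38 in knockout, a difference of -0.44 (SE 0.16). Gbp4, a guanylate-binding protein gene, differed by -0.31. B2m, the light chain of class I, differed by 0.16 (SE 0.06), at 12.18 and 12.30 against 12.02 to 12.12. Over the list of interferon-gamma targets, 9 of 25 tested were above 0 and 15 below, beside 57.3% and 39.9% of all genes. The median was -0.13, and none passed. Without overlap 2 were higher and 3 lower, beside 11.6% and 6.32% of all genes.

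**Figure D3:**
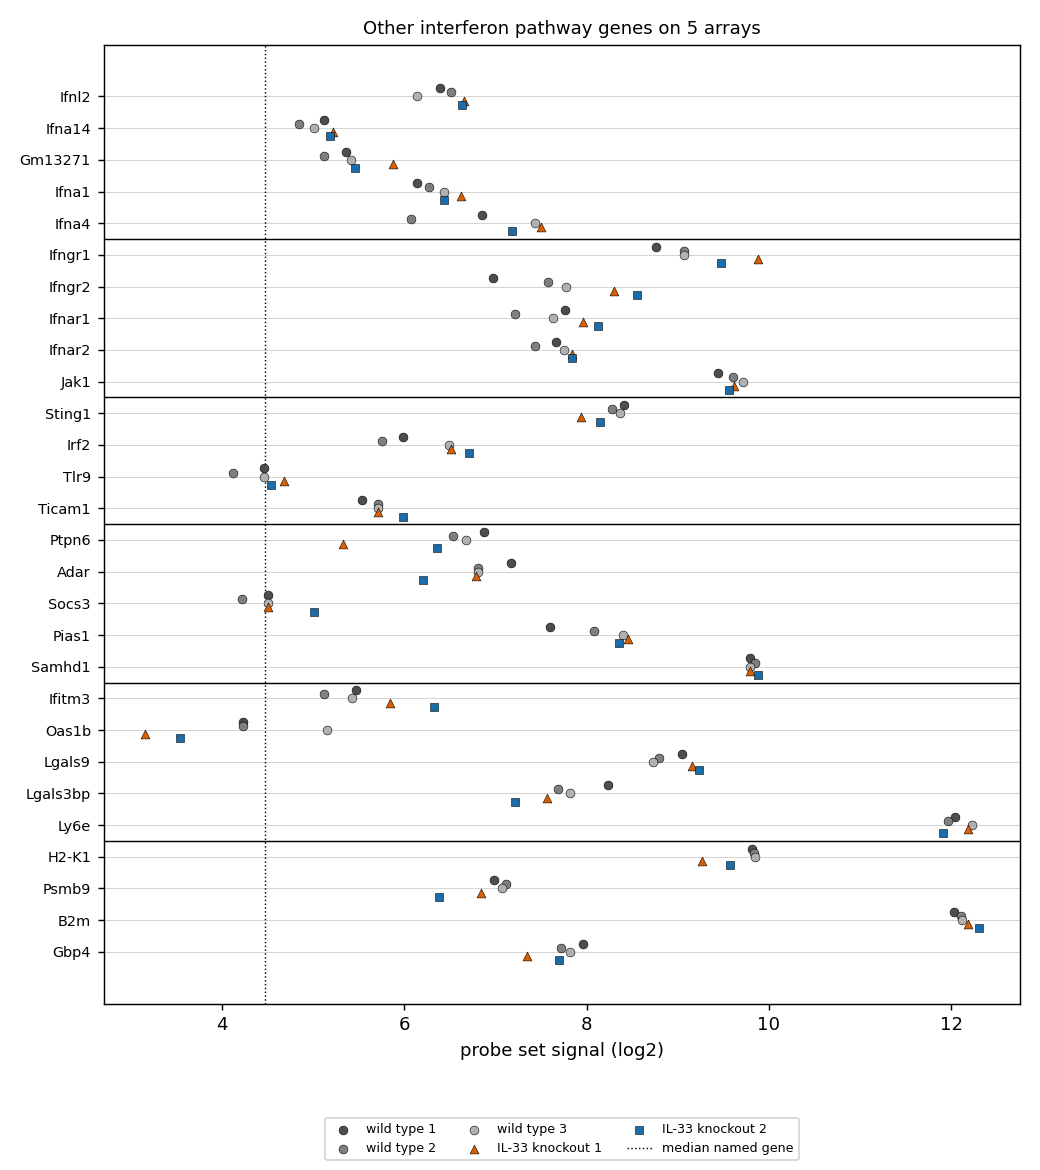
Signals on the 5 arrays (horizontal axis, log2) of the genes named from 6 further lists, from top to bottom interferon genes, receptors and proximal signalling, other sensors and factors, negative regulators, further type I targets, and interferon-gamma targets with antigen presentation; each point is 1 array. The triangle and square of the knockout arrays lie to the right of all circles for Ifngr1, Ifngr2, Ifnar1 and Ifnar2, and to the left for Sting1, H2-K1 and Psmb9.

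Markers of other cells were read beside these values, since myeloid cells also carry interferon response transcripts. The 14 measured ILC2 markers all had means above the median gene, and Gata3, the lineage factor, read between 7.89 and 8.50 on all arrays. Their differences between genotypes lay above 0 for 3 and below 0 for 11, where 39.9% of all genes lay below, with a median of -0.24. Of them 3 were lower without overlap, Il17rb, Nmur1 and Ptprc, beside 6.32% of all genes tested. Another 3 were higher without overlap, Icos, Il7r and Rora, beside 11.6%. The largest difference was that of Icos at 1.27 (adjusted p 0.402 by limma). Plasmacytoid dendritic cell markers had list means of 4.27 to 4.37 in wild type and 4.40 and 4.35 in knockout, and 4 of the 7 measured had means above the median gene. None of the 5 tested was separate between groups. Siglech read 4.39 to 4.52 on all arrays, whereas Tcf4 read 6.23 on knockout replicate 1 and 5.18 to 5.36 on the others. The 13 macrophage, monocyte and dendritic cell markers had list means of 4.48 to 4.80 in wild type and 4.59 and 4.73 in knockout. None of the 12 tested was separate between groups, and 4 of the 13 had means above the median gene, with Ccr2 at 8.90 and Cd209a at 6.86 the highest. Adgre1 read at most 4.05. Lyz2 read 5.58 on wild type replicate 2 and 2.47 to 3.77 on the other arrays. Csf1r, among the dim genes and not tested, read 3.68 and 3.72 in knockout against 3.26 to 3.59 in wild type. Of the neutrophil markers, Retnlg, dim and not tested, read 5.36 on wild type replicate 2 and 2.00 to 3.13 elsewhere. The neutrophil list mean was 4.12 on that array and 3.26 to 3.88 on the others. In the B cell, T cell, NK cell with ILC1 and fibroblast lists, Cd3g at 9.45 and Ighm at 9.22 had the highest means. Without overlap Cd8a and Col1a2 were higher and Cd3e lower, beside 11.6% and 6.32% of all genes tested. No gene of these lists passed.

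Some epithelial markers read higher on the knockout arrays, and none passed, with a lowest adjusted p of 0.514 by limma. Of 9 tested, 7 had a difference above 0 and 2, Cdh1 and Krt18, below, beside 57.3% and 39.9% of all genes. Without overlap 4 were higher, beside 11.6% of all genes. The mean of the 10 measured was 5.83 and 4.64 in knockout against 4.19 to 4.35 in wild type. Without Bpifa1, Scgb1a1 and Scgb3a2 the mean of the other 7 was 4.96 and 5.03 in knockout against 4.63 to 4.79 in wild type, so the order of the knockout arrays turned. The mean of 7 endothelial markers was 4.91 and 5.25 in knockout against 4.63 to 4.80 in wild type. Without overlap 2 of 5 tested were higher and 1 lower, beside 11.6% and 6.32% of all genes tested. Cdh5 read 6.26 and 7.14 in knockout against 4.98 to 5.68 in wild type, and Cldn5 5.95 and 6.68 against 4.48 to 5.13. Pecam1 read 6.48 and 7.21 against 6.57 to 6.86. Kdr was the lower one, and Tie1, Tek and Emcn lay within the wild-type range on both knockout arrays. The array with the highest endothelial mean, knockout replicate 2, was the one with high Ifit1, Cmpk2 and Usp18. It was also the one with low Tap1, Irf9, Parp14 and Stat2. On it 4 members were at least 0.5 above the wild-type mean and 6 at least 0.5 below, beside 10.1% and 11.7% of all genes tested. Knockout replicate 1, with the secretory airway transcripts, was the one with high Oas3. On it these counts were 2 and 1, beside 9.65% and 6.25%. The part of epithelial or endothelial cells, or of the high Xist signal, in the interferon values was not tested.

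**Figure D4:**
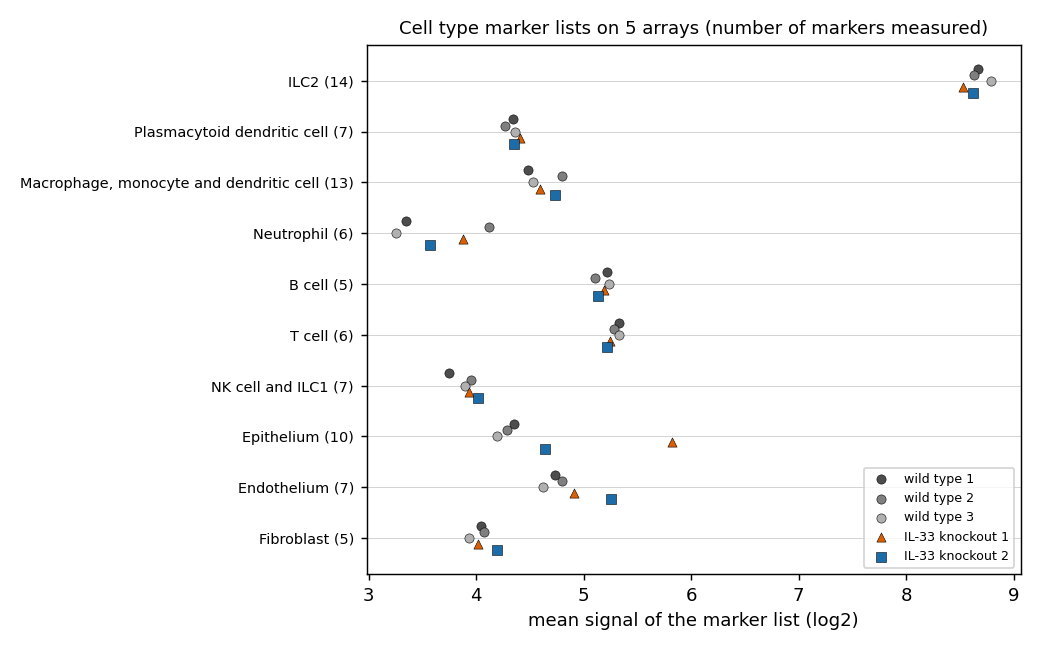
Mean log2 signal of each cell type marker list (horizontal axis) on the 5 arrays, with the number of markers measured in brackets; each point is 1 array. ILC2 markers lie between 8.53 and 8.79 on all arrays, while the epithelial mean of knockout replicate 1 at 5.83 and the endothelial mean of knockout replicate 2 at 5.25 lie to the right of the other arrays.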

How the data were processed

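Per the labels' protocols, Trizol total RNA from ILC2s received biotin with a Nugen kit before hybridisation to Affymetrix arrays. The values that the authors deposited are log2 signals per probe set. Per the submitters' processing notes they were made with RMA in Affymetrix Expression Console, of which no version or setting is named. RMA as usually run equalises arrays, so a shift of all transcripts together would not show.

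Of 41345 probe sets, 23521 had 1 symbol, 1814 several and 16010 none. The 22180 genes were reduced to 16635 by leaving out the 25% with the lowest mean. The test between genotypes was limma's, version 3.58.1 under R 4.3.3 (lmFit, eBayes, Benjamini-Hochberg over all genes tested, threshold 0.05), without a block. The fit was also run on simulated arrays with 1 spread per gene and no equal values. These data hold many equal values, and their knockout arrays stood apart, so that check does not cover such conditions. Precision is limited by the 5 arrays, and p-values measure only the spread between these arrays.

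The members and lists were chosen with earlier results of these data known. All measured members are named. Values on every array were planned for members without overlap of the groups, for the highest and lowest mean of each role, and for Stat2, Irf7, Irf9 and Irf1, and the others were added afterwards. From each of 6 further lists (123 genes measured of 135, 104 tested) the 4 genes with the smallest p and the one with the highest mean are named. Xist, Kdm5d, Eif2s3y and Il33 serve as label checks, to which Uty was added, and marker lists as cell type checks. Alternatives covered the filter, probe sets, scaling, variance model, array weights, replicate number and single arrays; a limit to genes with at least 4 distinct values was added after seeing the data.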

Additional observations from a re-analysis of the deposited data

How the results depend on the processing

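Under 12 of 14 alternatives no gene passed the threshold. Leaving out 1 array gave 0 to 1072 genes and 0 to 2 members past it, the highest without knockout replicate 1 (Stat2 and Irf9) and 389 genes and 1 member, Oas3, without knockout replicate 2; a lone array was there taken to vary like the others. The members' median difference lay between -0.0225 (without wild type replicate 2) and 0.14 with 1 array left out and was 0.0174 with the lowest 50% of genes left out. Members without overlap numbered 2 to 8 higher and 3 to 9 lower with 1 array left out, beside 15.0% to 31.1% and 8.67% to 23.6% of all genes, where fewer arrays make separation easier. Higher ones numbered 1 with the lowest 50% left out (11.5% of all genes), 5 after median centring and 7 after quantile normalization; the cause was not tested. With the replicate number as a block (replicate block), 0 genes and 0 members passed and the members' median was 0.11. The labels do not say that equal numbers mark a shared batch, and with 2 shared numbers the pairing could not be checked.

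Of 51 named genes, 39 turned sign under no alternative that gave a value, though Oas3 was 0.0 without knockout replicate 1. Some filters left out a few genes, so 699 values were compared. With 1 array left out, differences ran from -0.72 to 0.14 for Stat2, -0.96 to 0.15 for Irf9, -0.0441 to 0.0904 for Ddx58, -0.0587 to 1.53 for Ifit1, -0.0225 to 0.0268 for Ifit3, -0.0194 to 0.21 for Oasl1, -0.17 to 0.19 for Rsad2, -0.17 to 0.49 for Bst2, -0.22 to 0.35 for Gbp3, -0.0655 to 0.0739 for Jak1, -0.0188 to 0.0658 for Samhd1 and -0.17 to 0.10 for Ly6e. Signs also turned for Jak1 (-0.051) and Samhd1 (-0.058) after quantile normalization, for Ifit3 (-0.0069) and Jak1 (-0.0024) after median centring, and for Ly6e (0.0399) with the block.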
